A study of Mus musculus with 18 samples.

Results

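The genes described here are 10 components of inflammatory cell death: the inflammasome genes Nlrp3, Pycard and Casp1, the non-canonical inflammasome caspase Casp4, the pyroptotic pore gene Gsdmd, the membrane rupture gene Ninj1, and Casp8, Ripk1, Ripk3 and Mlkl of the necroptosis pathway. They were taken by name from a count table of 30583 genes, with earlier results of these data known. All 10 were among the 16311 genes that passed the filter on low counts. The table held 18 libraries of poly(A)-selected RNA, 1 per mouse, from 12-week-old male C57BL/6JR mice in 6 groups of 3. In 5 groups an infarct was made under sodium pentobarbital by ligating the left anterior descending artery of the heart, and muscle of the infarcted left ventricle was taken, following isoflurane and cervical dislocation, after 10 min, after 1 or 6 h, or after 24 or 72 h. The control mice, called sham here, had the same operation with a suture passed but not tied, and the labels place them at 0 h. No sham mice were matched to the later times, so time since surgery and ligation cannot be told apart. No transgene or drug treatment is named for any group.

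Inflammasomes are protein platforms in which a sensor such as NLRP3 binds the adaptor ASC, the product of Pycard, and activates caspase-1. Active caspase-1 matures interleukin-1β and interleukin-18 and cleaves gasdermin D, whose fragments form pores in the plasma membrane, and ninjurin-1, the Ninj1 product, then carries out the rupture of the dying cell. Mouse caspase-11, encoded by Casp4, binds intracellular lipopolysaccharide and cleaves gasdermin D directly. Necroptosis runs in parallel: RIPK1 and RIPK3 form a kinase complex that phosphorylates MLKL, which permeabilises the membrane, and caspase-8 keeps this complex in check. In the infarcted heart, these pathways have been studied both in leukocytes that enter the muscle and in resident cells.

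Libraries held 18.2 to 25.1 M (mega) counts. The labels give cardiomyocytes as the cell type, but the tissue was not sorted as far as the protocols say, and the summed level of 6 endothelial markers was 1208 to 1349 counts per M counts (CPM, scaled by TMM) in the sham libraries, beside 55555 to 60708 CPM for 7 cardiomyocyte markers. In bulk tissue, fewer cells of a type and less RNA per cell cannot be told apart. Replicate 1 at 6 h held 172 CPM of 4 atrial markers, against 1.47 to 3.4 CPM in the other 17 libraries, and results that rest on it are given with and without it. When libraries were scaled by their totals alone, the median change of all genes against sham on the log2 scale became -0.12 instead of -0.01 at 6 h, 0.20 instead of 0.01 at 24 h and 0.61 instead of 0.03 at 72 h. No called change of the 10 genes turned its direction under that scaling.

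None of the 10 genes was called different from sham within the first hour, and all 10 were higher at 72 h. A gene was called at an edgeR adjusted p under 0.05 (Benjamini-Hochberg, over all 16311 genes). At 10 min, 0 of the 10 genes were called (0.0736% of all genes were), with 0 at an unadjusted p under 0.05. At 1 h, 0 were called (0.294% of all genes), with Casp1 alone under an unadjusted p of 0.05. DESeq2 also called 0 at both times.

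The early levels overlapped with sham for most of the genes. At 10 min, Nlrp3 was at 0.168 to 0.893 CPM, Pycard at 4.13 to 5.91, Casp1 at 2.48 to 3.46, Casp4 at 1.62 to 2.12 and Gsdmd at 7.97 to 9.52 CPM over the 3 libraries, and Ninj1 was at 70.1 to 70.8, Ripk1 at 9.66 to 11.9, Ripk3 at 3.36 to 4.48, Mlkl at 5.04 to 5.25 and Casp8 at 10.1 to 12 CPM. At 1 h, Pycard was at 5.36 to 5.77, Casp1 at 2.25 to 2.27, Casp4 at 2.25 to 2.86, Gsdmd at 8.88 to 11.8, Ripk1 at 9.15 to 10.3, Ripk3 at 3.09 to 3.61, Mlkl at 4.08 to 5.89 and Casp8 at 8.3 to 9.41 CPM. The 1 h libraries of Casp1 and Casp8 and the 10 min libraries of Gsdmd lay below all sham libraries. Those of Nlrp3 and Ninj1 at 1 h lay above all sham libraries. None of these differences was called, and the share of all genes with such separation was not counted.

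At 6 h, 7 of the 10 genes were called (28.4% of all genes): Nlrp3, Casp4, Casp8, Ninj1, Ripk1 and Ripk3 were higher (16.3% of all genes were higher) and Casp1 was lower (12.2%). At 24 h, 8 were called (43.8%), all of them higher (23.7%), and Casp1 and Gsdmd were not. At 72 h, the 10 calls (66.4% of all genes) were all increases (34.2%). The median log2 fold change of the 10 genes was 0.91 at 6 h, 0.89 at 24 h and 1.80 at 72 h, where the median over all genes was within 0.03 of 0. The 5 comparisons with sham use the same 3 sham libraries and are not independent of each other. An F test of the 5 contrasts together called all 10 genes, as it did 78.4% of all genes.

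**Figure D1:**
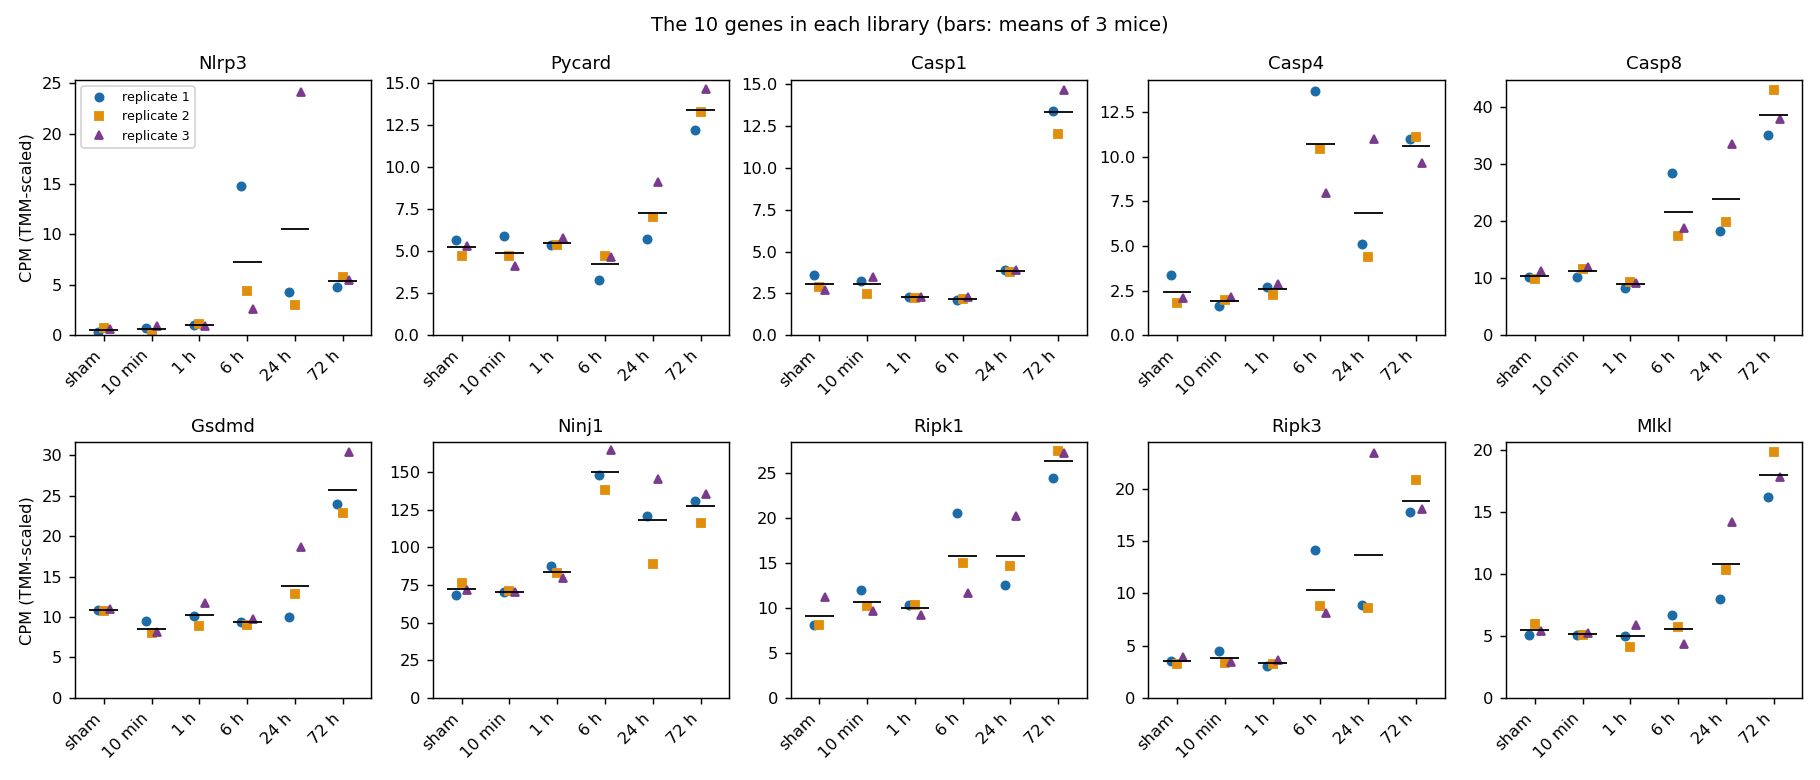
TMM-scaled CPM (vertical axes, each from 0) of the 10 genes in each of the 18 libraries by time after ligation; points are libraries, marked by replicate number, and bars are group means of 3 mice. Casp1, Pycard, Gsdmd and Mlkl have a 6 h mean below or near that of sham and are highest at 72 h, while Casp4 and Ninj1 have their highest mean at 6 h on this scale (at 72 h in FPKM, scaled to library totals), and replicate 3 at 24 h is the highest library of its group for all 10 genes.

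The sensor Nlrp3 had the lowest mean of the 10 genes per gene length in sham and at 72 h, but not at 6 h or 24 h. Its level was 0.354, 0.726 and 0.577 CPM in the 3 sham libraries, which is 7 to 14 counts, and 0.965, 1.12 and 0.874 CPM at 1 h. At 6 h it was 14.8, 4.4 and 2.56 CPM, at 24 h 4.31, 3.04 and 24.2 CPM, and at 72 h 4.76, 5.81 and 5.5 CPM. Every library from 1 h on lay above every sham library, at 1 h by little and without a call. Replicate 1 at 6 h and replicate 3 at 24 h stood several times above the other libraries of their groups.

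Nlrp3 was called higher at all 3 later times, with a log2 fold change of 3.69 ± 0.91 (SE; edgeR adjusted p = 0.00857) at 6 h, 4.22 ± 0.91 (adjusted p = 0.00213) at 24 h and 3.27 ± 0.91 (adjusted p = 0.00571) at 72 h. Without replicate 1 the 6 h mean was 3.48 in place of 7.26 CPM and the log2 fold change 2.65 (edgeR adjusted p = 0.0495). Without replicate 3 the 24 h mean was 3.68 in place of 10.5 CPM and the log2 fold change 2.72 (adjusted p = 0.00708). The 72 h mean of 5.36 ± 0.54 CPM (SD, n = 3) thus lay below the 24 h mean with that library and above it without it. The change from 24 h to 72 h was not called (log2 fold change -0.95 ± 0.70, edgeR adjusted p = 0.279), and it was 0.54 without replicate 3 at 24 h.

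Pycard, which encodes the adaptor that links the sensor to caspase-1, followed another course. It was at 5.66, 4.72 and 5.33 CPM in sham, 3.28, 4.73 and 4.63 CPM at 6 h, 5.69, 7.03 and 9.12 CPM at 24 h and 12.2, 13.3 and 14.6 CPM at 72 h. The 6 h libraries overlapped with sham (log2 fold change -0.31 ± 0.19, edgeR adjusted p = 0.237), and the 72 h libraries lay above all others. Its increase was 0.47 ± 0.18 (edgeR adjusted p = 0.042) at 24 h and 1.35 ± 0.18 (adjusted p = 2.28e-06) at 72 h. The 24 h call was lost in 13 of 28 alternatives, among them the fits without any 1 sham library (adjusted p 0.0577 to 0.139), without replicate 2 at 24 h (adjusted p = 0.0624) and without replicate 3 at 24 h (0.29, adjusted p = 0.241). The CPM ratio of sensor to adaptor, chosen after the values were seen and not tested, was 0.0625 to 0.154 in sham and 0.376 to 0.437 at 72 h. At 6 h it was 0.929 and 0.552 in replicates 2 and 3 and 4.53 in replicate 1, and at 24 h it was 0.758 and 0.432 in replicates 1 and 2 and 2.65 in replicate 3.

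The inflammatory caspases are neighbours. Casp1 lies on the forward strand at chr9:5298517-5307265 and Casp4 on the same strand at chr9:5308828-5336783 (GENCODE M21, GRCm38), 1562 bases downstream. Casp1 was at 3.59, 2.9 and 2.71 CPM in sham, at 2.08, 2.15 and 2.29 CPM at 6 h, at 3.88, 3.78 and 3.92 CPM at 24 h and at 13.4, 12 and 14.7 CPM at 72 h. Casp4 was at 3.39, 1.81 and 2.09 CPM in sham, at 13.7, 10.4 and 7.98 CPM at 6 h, at 5.09, 4.38 and 11 CPM at 24 h and at 11, 11.1 and 9.66 CPM at 72 h. All 3 libraries at 6 h were below all sham libraries for Casp1 and above them for Casp4, and by 72 h both genes were above sham in every library.

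Casp4 rose by a log2 fold change of 2.14 ± 0.31 (edgeR adjusted p = 9.32e-05) at 6 h, 1.47 ± 0.31 (adjusted p = 0.00106) at 24 h and 2.12 ± 0.30 (adjusted p = 7.71e-06) at 72 h, and its 24 h value was 0.96 without replicate 3 of that time (adjusted p = 0.00533). Casp1 fell by 0.49 ± 0.17 on the log2 scale at 6 h (edgeR adjusted p = 0.0376). That call was lost when any single library at 6 h was left out (adjusted p 0.0543 to 0.109) and with DESeq2 (adjusted p = 0.0696). At 24 h Casp1 was not called (0.33 ± 0.16, edgeR adjusted p = 0.1), and at 72 h it was higher by 2.13 ± 0.16 (adjusted p = 1.97e-09), the smallest adjusted p of the 10 genes in any contrast with sham.

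The CPM ratio of Casp4 to Casp1, a pair singled out after their values were seen and so not tested, was 0.944, 0.625 and 0.77 in sham, 6.57, 4.84 and 3.49 at 6 h, 1.31, 1.16 and 2.8 at 24 h and 0.819, 0.919 and 0.659 at 72 h. Gene length cancels when this ratio is followed across libraries. The 6 h libraries had the 3 highest ratios of all 18.

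**Figure D2:**
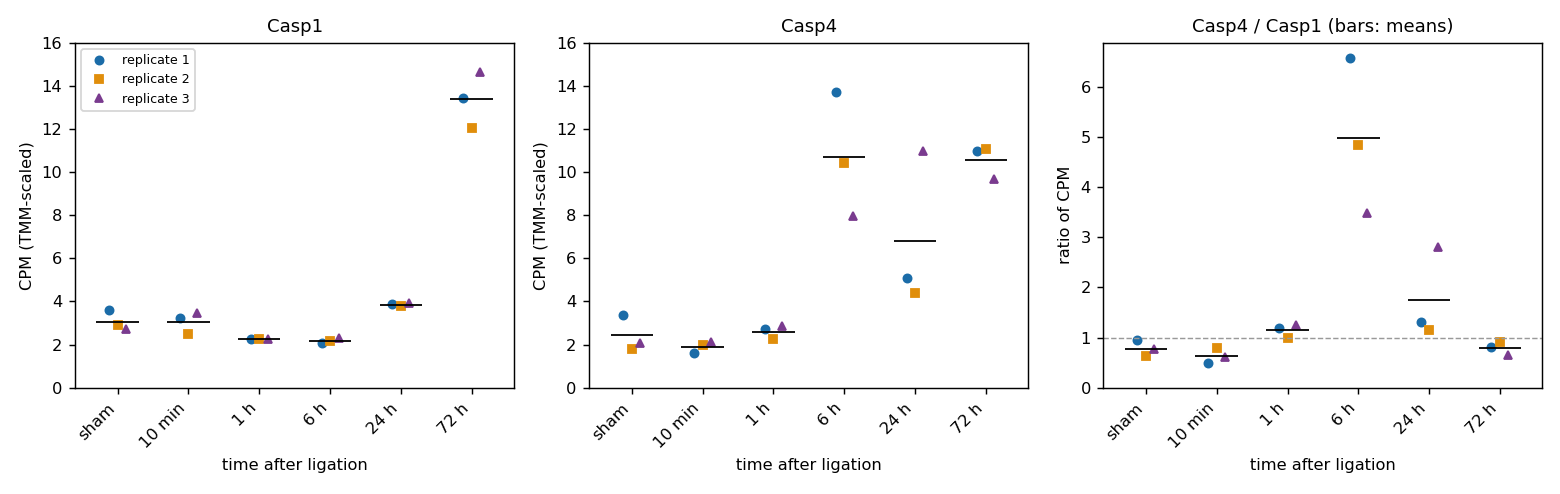
TMM-scaled CPM of Casp1 and Casp4 and the ratio of Casp4 to Casp1 (vertical axes) by time after ligation, with a dashed line at a ratio of 1; points are libraries and bars are means of 3 mice. The ratio runs from 3.49 to 6.57 at 6 h and is below 1 in all sham, 10 min and 72 h libraries. It is not corrected for gene length, so a ratio of 1 does not mark equal levels per gene length.

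The 250 bases before the start of these 2 genes are printed because the genes lie side by side and had unlike levels at 6 h. They are RefSeq promoter windows of GRCm38.p6, both on the forward strand, at chr9:5298267-5298516 for Casp1 and chr9:5308599-5308848 for Casp4. Capitals mark matches, on either strand, to an NF-kB pattern of GGG, any 2 bases and TTTCC.
Casp1: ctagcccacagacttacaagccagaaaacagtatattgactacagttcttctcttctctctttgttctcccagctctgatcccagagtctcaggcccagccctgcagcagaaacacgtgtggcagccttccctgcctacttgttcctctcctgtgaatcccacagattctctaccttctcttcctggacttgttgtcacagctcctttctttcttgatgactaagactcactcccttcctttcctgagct
Casp4: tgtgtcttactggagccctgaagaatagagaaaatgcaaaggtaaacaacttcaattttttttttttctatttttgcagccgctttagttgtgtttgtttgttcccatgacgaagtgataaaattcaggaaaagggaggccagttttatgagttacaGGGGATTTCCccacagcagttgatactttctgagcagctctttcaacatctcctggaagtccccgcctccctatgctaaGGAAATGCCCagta

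Casp4 held 2 such matches, from 93 to 84 and from 14 to 5 bases before the start, and Casp1 held 0. GENCODE M21 places the start of Casp4 before the second match, inside this window. Of 32851 RefSeq promoter windows of the same length, 1.41% held the pattern and 8 (0.0244%) held at least 2 matches. Windows were listed for 9 of the 10 genes, and no other member held it. A wider pattern of GGG, any 5 bases and CC, which contains the first one, was in 4 of the 9 windows (Casp1, Casp4, Ninj1 and Nlrp3) and in 45.8% of all windows. The PU.1 pattern GAGGAAGT was in the Pycard window and in 2.44% of all windows, and the E-box CACGTG was in those of Casp1 and Ripk3 and in 6.02%.

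The other patterns searched on both strands had 0 matches in the 9 windows. These were TGANTCA for AP-1 (6.75% of all windows), for interferon response elements GAAA, any 2 bases and GAAA (2.98%), and the same followed by C (0.685%), TTCNNNGAA for STAT factors (7.02%), AGAGGAAG for ETS factors (3.67%) and TGACGTCA for the cyclic AMP response element (1.55%). A match is a description of the letters, and binding was not measured.

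Gasdermin D, the pore-forming protein that both caspases cleave, is encoded by Gsdmd. Its level was 10.9, 10.7 and 11 CPM in sham, 9.35, 8.99 and 9.74 CPM at 6 h, 10.1, 12.8 and 18.6 CPM at 24 h and 23.9, 22.9 and 30.4 CPM at 72 h. The 6 h libraries were below the sham libraries by little (log2 fold change -0.21 ± 0.18, edgeR adjusted p = 0.397), the 24 h libraries overlapped with sham (0.34 ± 0.17, adjusted p = 0.119) and the 72 h libraries were above all others. The increase at 72 h was 1.25 ± 0.17 (edgeR adjusted p = 4.09e-06). Leaving out single libraries at 24 h moved that value both ways: it was 0.54 and called without replicate 1 (edgeR adjusted p = 0.0118), and 0.079 without replicate 3 (adjusted p = 0.726), where the 24 h mean was 11.4 CPM against 10.9 CPM in sham.

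Ninj1, whose product ruptures the membrane after pores have formed, had the highest level per gene length. In fragments per kilobase per M counts (FPKM, the authors' values, scaled to library totals) its sham mean was 42.7 ± 2.33 (SD, n = 3), against 5.67 ± 0.23 for Gsdmd, 3.35 ± 0.33 for Casp8, 2.2 ± 0.17 for Mlkl, 1.9 ± 0.26 for Casp1 and 1.67 ± 0.21 for Ripk3. Pycard (1.28), Ripk1 (1.02), Casp4 (0.606) and Nlrp3 (0.126) had the lower sham means, also in FPKM. At 72 h Ninj1 was still first at 113 ± 10.5 FPKM, followed by Gsdmd at 20.2 and Casp8 at 18.7, and Nlrp3 was last at 1.84.

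Ninj1 was at 68.5, 76.3 and 72 CPM in sham and at 87.7, 83 and 79.7 CPM at 1 h. It reached 148, 138 and 165 CPM at 6 h, and was at 121, 89.1 and 145 CPM at 24 h and at 131, 117 and 136 CPM at 72 h. The 1 h libraries were already above the sham libraries without a call, and in TMM-scaled CPM the 6 h libraries were above those of all other times except replicate 3 at 24 h, whereas the FPKM mean, scaled to library totals, was higher at 72 h. The log2 fold change was 1.06 ± 0.13 (edgeR adjusted p = 1.80e-05) at 6 h, 0.71 ± 0.13 (adjusted p = 0.000293) at 24 h and 0.82 ± 0.13 (adjusted p = 1.57e-05) at 72 h.

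Caspase-8, which restrains necroptosis and can itself cleave gasdermin D, had the highest mean of the 4 necroptosis genes per gene length at 72 h (18.7 FPKM, against 13.4 for Ripk3, 10.9 for Mlkl and 4.40 for Ripk1). Casp8 was at 10.3, 9.8 and 11.2 CPM in sham, 28.5, 17.5 and 18.8 CPM at 6 h, 18.3, 19.9 and 33.5 CPM at 24 h and 35.2, 43.1 and 37.9 CPM at 72 h. The groups from 6 h on were above sham in every library. Casp8 rose by 1.04 ± 0.20 (edgeR adjusted p = 0.00121) at 6 h, 1.19 ± 0.20 (adjusted p = 0.000222) at 24 h and 1.89 ± 0.20 (adjusted p = 2.83e-07) at 72 h.

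Ripk1 and Ripk3 encode the kinases of the necroptotic complex. Ripk1 was at 8.08, 8.09 and 11.1 CPM in sham, 20.5, 15 and 11.6 CPM at 6 h, 12.5, 14.6 and 20.2 CPM at 24 h and 24.4, 27.4 and 27.2 CPM at 72 h. Ripk3 was at 3.49, 3.21 and 3.91 CPM in sham, 14.1, 8.75 and 8.14 CPM at 6 h, 8.84, 8.62 and 23.4 CPM at 24 h and 17.7, 20.8 and 18.1 CPM at 72 h. Both were above sham in every library at the 3 later times, Ripk1 at 6 h only just.

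The Ripk3 increase was the larger of the 2, at 1.54 ± 0.33 (edgeR adjusted p = 0.00251), 1.93 ± 0.32 (adjusted p = 0.000241) and 2.41 ± 0.32 (adjusted p = 5.73e-06) at 6, 24 and 72 h on the log2 scale. The 24 h value was 1.30 without replicate 3 of that time, still called. The difference between the genes was not tested. Ripk1 rose by 0.78 ± 0.19 (edgeR adjusted p = 0.00622), 0.79 ± 0.19 (adjusted p = 0.00333) and 1.53 ± 0.19 (adjusted p = 1.40e-06), and its 6 h call was lost without replicate 1 of that time (adjusted p = 0.0523).

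Mlkl, which encodes the executioner of necroptosis, was called at 24 and 72 h but not at 6 h. It was at 5.05, 5.96 and 5.37 CPM in sham, 6.67, 5.69 and 4.36 CPM at 6 h, 7.98, 10.3 and 14.2 CPM at 24 h and 16.2, 19.8 and 17.8 CPM at 72 h. The 6 h libraries lay on both sides of the sham libraries, and every later library was above them. Mlkl was higher by 0.98 ± 0.19 (edgeR adjusted p = 0.000559) at 24 h and by 1.72 ± 0.19 (adjusted p = 2.77e-07) at 72 h.

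Consecutive times were then compared directly. Between 10 min and 1 h, 0 were called (0.307% of all genes; 1 at an unadjusted p under 0.05, Casp1, and 0 with DESeq2). Between 1 h and 6 h, 6 were called (24.5%), all higher (14.5%), and these were the 6 genes that were higher than sham at 6 h. Between 6 h and 24 h, 5 were called (27.8%), 4 of them higher (14.2%) and 1 lower (13.7%): Mlkl rose by 0.96 ± 0.19 (edgeR adjusted p = 0.00151), Casp1 by 0.82 ± 0.17, Pycard by 0.78 ± 0.18 and Gsdmd by 0.56 ± 0.18, and Ninj1 fell by 0.35 ± 0.13 on the log2 scale (adjusted p = 0.0483). The Ninj1 value was -0.051 with scaling by library totals (adjusted p = 0.76). None of the 5 was called when only the 6 libraries of those 2 times were fitted, where 1024 of all genes were called against 4541 in the fit of all libraries. Without replicate 3 at 24 h the Gsdmd step was 0.29 and not called (adjusted p = 0.166), and the Ninj1 call was also lost in 16 of 18 fits that each left out 1 library. Between 24 h and 72 h, 6 were called (50.5%), all higher (24.4%), and Casp1 rose most, by 1.79 ± 0.15 (adjusted p = 3.06e-08). Without replicate 3 at 24 h, 9 were called there, all except Nlrp3. The share of all genes called without that library is not given here.

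**Figure D3:**
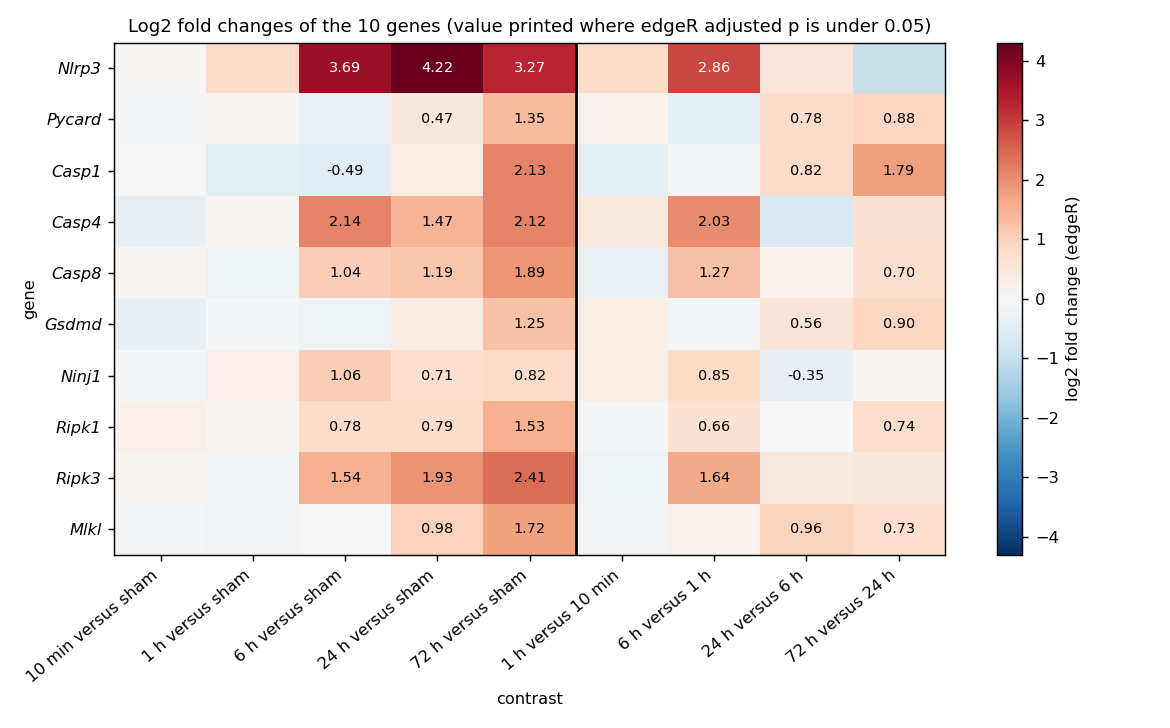
Log2 fold changes of the 10 genes (vertical axis) in the 5 contrasts with sham and, right of the line, the 4 contrasts of consecutive times (horizontal axis); colour gives the edgeR log2 fold change, and the value is printed where the adjusted p is under 0.05. Nlrp3 reaches 3.69 at 6 h and 4.22 at 24 h, Casp1 is at -0.49 at 6 h and 2.13 at 72 h, and no value is printed at 10 min or 1 h.

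Ordered by group mean in TMM-scaled CPM, 7 genes had their highest mean at 72 h, Casp4 and Ninj1 at 6 h and Nlrp3 at 24 h. The 6 h peaks turned with the scaling: in FPKM, scaled to library totals, Ninj1 was at 82.4 at 6 h and 113 at 72 h, and Casp4 at 2.47 at 6 h and 3.97 at 72 h. The 72 h libraries were above the 24 h libraries, without overlap, for Pycard, Casp1, Gsdmd, Ripk1, Mlkl and Casp8. These are the 6 genes called higher in that contrast, where 24.4% of all genes were called higher. The share of all genes without overlap was not counted. For Nlrp3, Casp4 and Ripk3 the 3 highest groups overlapped with their neighbours in that order, so neighbouring ranks among them are not told apart. The Ripk3 libraries at 72 h (lowest 17.7 CPM) were all above those at 6 h (highest 14.1 CPM). Across the 18 libraries, the log2 CPM of Casp8 and Ripk3 had the highest correlation of any pair of the 10 genes (Pearson r = 0.98), and Ninj1 and Casp1 the lowest (r = 0.29). These are descriptions over 18 libraries that share the 6 groups.

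Markers of neutrophils and of macrophages had their highest sums at different times. The summed level of 11 neutrophil markers was 5.37 to 7.67 CPM in sham, where Ly6g was at 0 in all 3 libraries, 953, 443 and 276 CPM at 6 h, 301, 109 and 997 CPM at 24 h and 72.7 to 87.3 CPM at 72 h. Of the 10 of these that were tested, 10, 9 and 7 were called higher at 6, 24 and 72 h. The libraries with the highest sums, replicate 1 at 6 h and replicate 3 at 24 h, were the ones in which Nlrp3 was highest. Replicate 1 was the highest library at 6 h for 6 of the 10 genes, and replicate 3 the highest at 24 h for all 10. Replicate 3 at 24 h also had the lowest cardiomyocyte marker sum of its group (23906 CPM, against 36713 and 37361 CPM). Its monocyte and macrophage marker sum was the highest of that group (738 CPM, against 520 and 538 CPM).

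The summed level of 11 monocyte and macrophage markers was 190 to 216 CPM in sham, 166 to 281 CPM at 6 h, 520 to 738 CPM at 24 h and 3289 to 4243 CPM at 72 h. At 6 h, 4 of the 11 were called higher and 2 lower, at 24 h 10 were higher, and at 72 h all 11 were. Over the same times 6 fibroblast markers went from 657 to 704 CPM in sham to 7806 to 10083 CPM at 72 h (6 called higher), and 7 cardiomyocyte markers fell to 14583 to 19205 CPM (7 called lower). Sums of T and NK cell markers were at or under 3.69 CPM and those of B cell markers at or under 6.93 CPM in all libraries. At these low levels, 2 of 2 tested T and NK cell markers and 3 of 4 B cell markers were called higher at 72 h. Of 6 endothelial markers, 2 were called higher at 6 h, 3 lower at 24 h and 4 lower at 72 h. The part of these cell types in the gene changes was not tested. Replicate 1 at 6 h and replicate 3 at 24 h were both left out in an alternative chosen after seeing the data. There, 6 of the 10 genes were called at 6 h, 7 at 24 h and 10 at 72 h. The share of all genes called in that fit is not given here. In the fit of all libraries it was 28.4%, 43.8% and 66.4%.

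**Figure D4:**
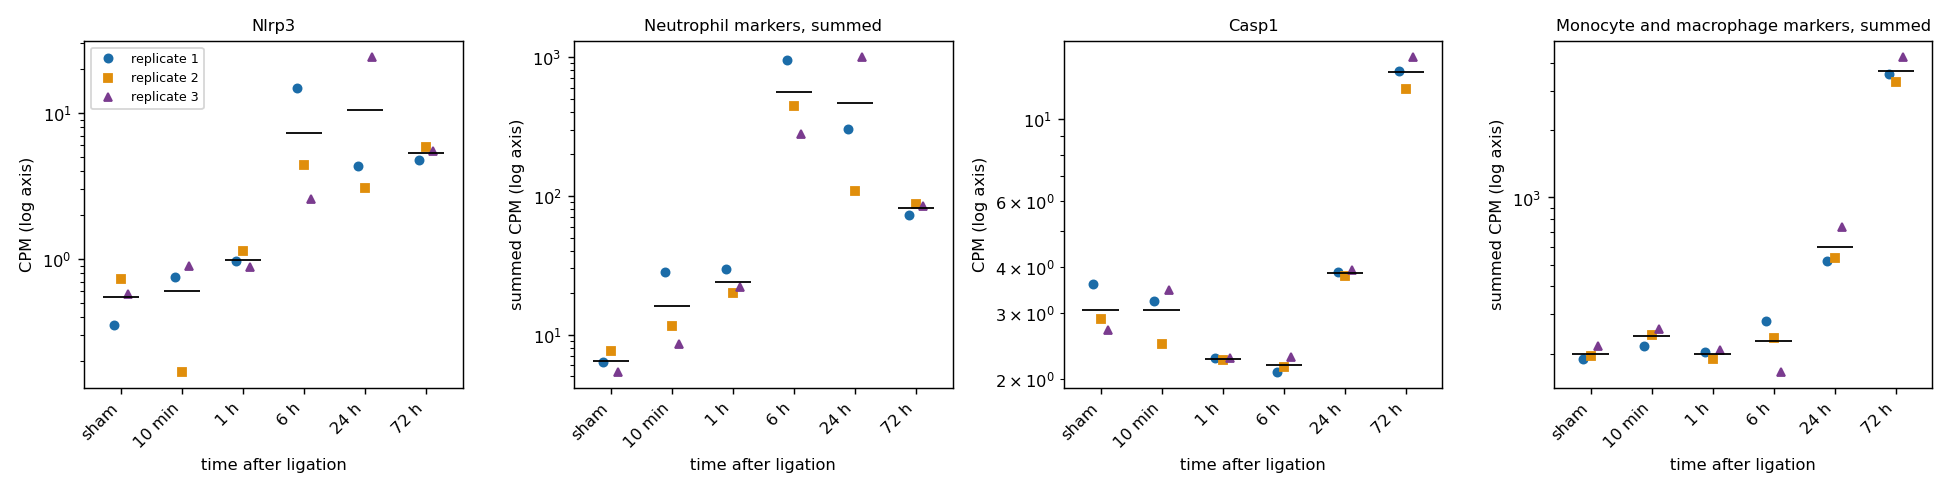
CPM of Nlrp3 and Casp1 beside the summed CPM of 11 neutrophil and of 11 monocyte and macrophage markers (vertical axes, log scale) by time after ligation; points are libraries and bars are means of 3 mice. Nlrp3 and the neutrophil sum are highest in replicate 1 at 6 h and replicate 3 at 24 h, and Casp1 and the macrophage sum are highest at 72 h.

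Other genes of the same pathways were read from 5 lists chosen for their known roles. For the lists below, the shares of all genes called higher and lower were 16.3% and 12.2% at 6 h, 23.7% and 20.2% at 24 h, and 34.2% and 32.2% at 72 h. Counts with scaling by library totals have another background. Under that scaling, 1914 of all 16311 genes were higher and 2802 lower at 6 h, and 9472 were higher and 2382 lower at 72 h. Of 20 inflammasome sensor and licensing genes, 19 were tested. At 6 h, 5 were higher and 2 lower, at 24 h 13 were higher and 3 lower, and at 72 h 12 were higher and 5 lower. The list's median log2 fold change at 72 h was 2.27, or 2.24 with genes at the floor of 3 counts in sham set to their bound. Naip6, a sensor component of the NAIP family, rose by 3.20 ± 0.24 at 72 h (edgeR adjusted p = 2.55e-09), P2rx7, the ATP receptor that triggers NLRP3, by 2.24 ± 0.17 (adjusted p = 3.03e-09), and the channel gene Panx1 by 3.50 ± 0.28 (adjusted p = 6.34e-09). P2rx7 went from 3.74, 3.58 and 6.08 CPM in sham to 21, 20.9 and 21.8 CPM. With scaling by library totals, 14 were higher and 0 lower at 72 h.

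One gene of that list was called at 1 h: Txnip, which encodes a thioredoxin-binding protein reported to bind NLRP3, outside the naming rule and chosen after its values were seen. It was at 305, 390 and 293 CPM in sham, 747, 669 and 645 CPM at 1 h, and 727, 748 and 1005 CPM at 6 h. The 1 h libraries were all above sham (1.06 ± 0.21, edgeR adjusted p = 0.0462), but the call was lost in 16 of 28 alternatives, among them every fit without 1 of the sham or 1 h libraries (adjusted p 0.0666 to 0.313).

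Of 15 caspases and caspase regulators, 2 were higher and 4 lower at 6 h, 4 higher and 2 lower at 24 h, and 11 higher and 1 lower at 72 h, with a median log2 fold change of 0.55. Serpinb1a, a serine protease inhibitor of neutrophils that also restrains inflammatory caspases, was at 3.08, 2.9 and 3.33 CPM in sham and at 63, 110.4 and 60.5 CPM at 72 h. It rose by 4.65 ± 0.34 (edgeR adjusted p = 1.32e-08), and the apoptosome gene Apaf1 rose by 1.60 ± 0.15 (adjusted p = 3.11e-08). With scaling by library totals, 0 were higher and 5 lower at 6 h.

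Of 15 gasdermin, pore partner and membrane repair genes, 13 were in the table and 11 were tested. At 72 h, 5 were higher and 2 lower, with a median of 0.23. The repair genes went in both directions: the ESCRT-III gene Chmp4c fell by 1.39 ± 0.12 on the log2 scale (edgeR adjusted p = 8.72e-09) and the ATPase gene Vps4b rose by 0.73 ± 0.10 (adjusted p = 3.88e-06). Its paralog Vps4a fell by 0.60 ± 0.09 (adjusted p = 7.43e-06), a call lost with scaling by library totals (adjusted p = 0.93), where 9 genes of the list were higher and 1 lower. Ninj2, the paralog of Ninj1, had at most 1 count in any library.

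The list named cytokine outputs held 7 genes: Il1a, Il1b, Il18, Il18bp, Il1rn, Il33 and Hmgb1. Not all of them encode cytokines matured by caspase-1. Of the 7, 3 were higher at 6 h, 4 at 24 h and 5 at 72 h. None was lower at these times. Il18, matured by caspase-1, rose by 4.07 ± 0.35 (edgeR adjusted p = 1.39e-08) at 72 h, from 0.152, 0.207 and 0.266 CPM in sham to 3.97, 3.35 and 3.53 CPM. The alarmin gene Il33 was at 3.23, 4.82 and 3.42 CPM in sham, 36.1, 25.4 and 15.9 CPM at 6 h and 18.8, 27.0 and 28.7 CPM at 72 h (2.70 ± 0.32, edgeR adjusted p = 1.59e-06). Il1rn, the interleukin-1 receptor antagonist gene, had 2 or 3 counts in each sham library. Taken against 3 counts per library, it was at least 75.3-fold higher at 72 h (edgeR adjusted p = 0.00157). This was the lowest bound of the later times, with at least 120.5-fold at 6 h and 240.5-fold at 24 h.

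Of 36 necroptosis input and TNF complex genes, 35 were tested, and 12 were higher and 3 lower at 6 h, 17 higher and 1 lower at 24 h, and 17 higher and 8 lower at 72 h. The median log2 fold change was 0.15, 0.36 and 0.27. Zbp1, a nucleic acid sensor that engages RIPK3, was at 1.11, 0.674 and 1.07 CPM in sham and 17.5, 13.6 and 13.6 CPM at 72 h (3.96 ± 0.42, edgeR adjusted p = 3.37e-07). Tradd, an adaptor of the TNF receptor, rose by 1.69 ± 0.13 (adjusted p = 5.30e-09), and Ppm1b, a phosphatase that acts on RIPK3, fell by 0.99 ± 0.11 on the log2 scale (adjusted p = 4.78e-07). With scaling by library totals, 27 were higher and 2 lower at 72 h.

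**Figure D5:**
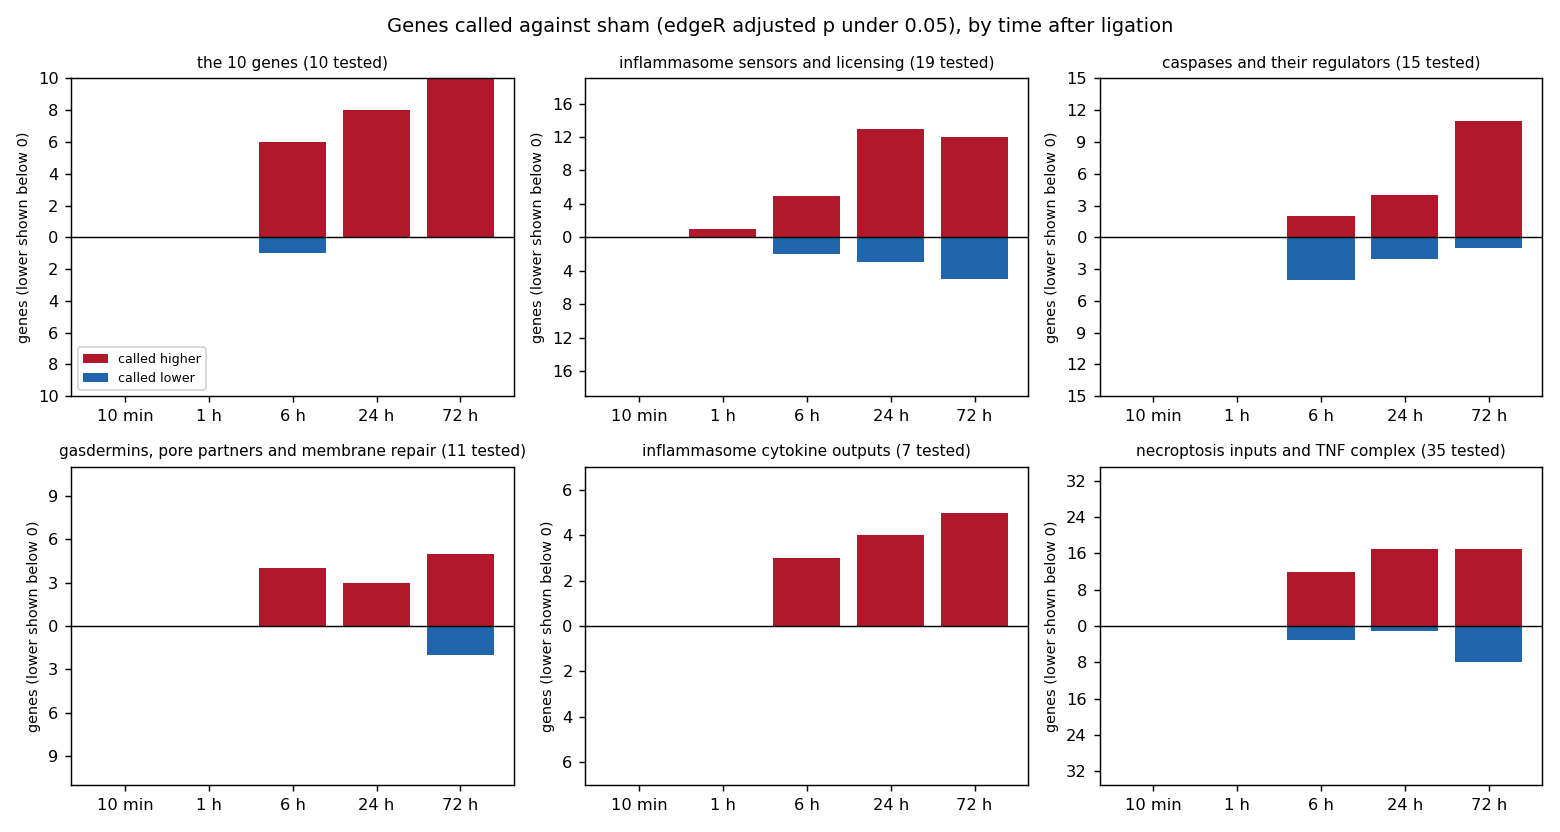
Number of genes called higher (above 0) and lower (below 0) than sham (vertical axis) by time after ligation (horizontal axis) for the 10 genes and the 5 pathway lists, with the number tested in each title. Calls are 0 at 10 min in all 6 panels and reach 10 higher for the 10 genes at 72 h, where the necroptosis input and TNF complex list has 17 higher and 8 lower.

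For 4 of the genes (Nlrp3, Gsdmd, Mlkl and Ninj1), those with the most similar pattern were taken as those with the highest Pearson correlation of log2 CPM over the 18 libraries, among 11663 genes. For Nlrp3 these were Samsn1 (r = 0.97), Ccr1 (0.96) and Rnf19b (0.96), and for Gsdmd they were Tcirg1 (0.97), Arrdc1 (0.96) and Aim2 (0.96). For Mlkl they were Rps6ka1 (0.99), Ptma (0.98) and Bin1 (0.98), and for Ninj1 they were Slc3a2 (0.96), Serpina3n (0.95) and Fjx1 (0.95). Aim2 encodes another inflammasome sensor, and its mean went from 1.99 CPM in sham to 1.92 CPM at 6 h and 9.12 CPM at 72 h.

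In GENCODE M21 on GRCm38, Nlrp3 spans chr11:59541568-59566956, Gsdmd chr15:75862327-75867408, Ninj1 chr13:49187485-49196244, Ripk1 chr13:34002363-34037147 and Casp8 chr1:58795374-58847503, all on the forward strand. Pycard spans chr7:127989708-127993867, Ripk3 chr14:55784995-55788865 and Mlkl chr8:111311797-111338177, all on the reverse strand. The counts are over whole genes and do not tell exons or isoforms apart. Some of them can hold reads of other genes, since use of strand in the counting is not given in the sources used here. Pycard overlaps Gm45205 on the opposite strand over 599 bases, and Ripk1 overlaps Serpinb6a on the opposite strand over 432 bases. Ripk1 and Mlkl also contain processed pseudogenes (Gm17083 and Gm17084 in Ripk1, Gm45712 in Mlkl), and Casp8 overlaps the transcript model Gm37760 on its own strand.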

How the data were processed

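Per the labels' protocols, poly(A) RNA was fragmented and copied from random hexamers, with 1 library per mouse. Per the submitters' processing notes, reads were handled with cutadapt 1.18, HISAT2 2.1.0 and featureCounts on mm10. The annotation and use of strand are not given in the sources used here. Read counts per gene were deposited by the authors, along with FPKM (the same counts divided by gene length and library total), and the series tables equalled the sample tables (0 values differed). In the deposited FPKM table, the columns of replicates 2 and 3 at 6 h each followed the other replicate's counts, which leaves group means unchanged. Symbols and coordinates come from GENCODE M21, matched by gene ID (30489 matched, 94 did not). The gene length implied by the 2 tables equalled the GENCODE M21 exon length, within 0.001 bases, for 87% of 10445 well-counted genes.

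From the deposited counts, edgeR 4.0.16 (R 4.3.3) removed 14272 genes with filterByExpr and scaled libraries by TMM. All 18 libraries entered a robust quasi-likelihood model with group means as coefficients, and tests were two-sided. On simulated counts for the contrast of 24 h with sham over 16311 genes, it recovered 93% of 100 genes changed 2-fold and 100% of 100 changed 4-fold. The changed genes were over 1 CPM in sham, and all genes and groups had the same simulated spread. These rates thus do not apply to genes with a wider spread or to Nlrp3, with a sham mean of 0.552 CPM. Bounds use a floor of 3 counts per library, which covers counting error only. Correlations use log2 CPM with a prior count of 2. DESeq2 1.42.0 and limma 3.58.1 on log2(FPKM + 1) and log2(FPKM + 0.1) were alternatives, along with other scalings, other filters, a replicate block and fits without each library.

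The 10 genes, the lists and the motif patterns were chosen with earlier results of these data known. All 10 genes are named. Each list is represented by its 3 top genes by adjusted p, taken at the time when most of the list was called, except that 1 of them is not reported here. Pattern likeness was ranked for Nlrp3, Gsdmd, Mlkl and Ninj1 among tested genes with mean counts of 50 or more, predicted genes left out, and the 3 highest are named.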

Additional observations from a re-analysis of the deposited data

Results flagged for a closer look

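Differences between consecutive times, by the edgeR test of the difference itself, singled out 17 changes. From 1 h to 6 h the log2 fold change was 2.86 for Nlrp3, 2.03 for Casp4, 1.64 for Ripk3, 1.27 for Casp8, 0.85 for Ninj1 and 0.66 for Ripk1. From 6 h to 24 h it was 0.96 for Mlkl, 0.82 for Casp1, 0.78 for Pycard, 0.56 for Gsdmd and -0.35 for Ninj1. From 24 h to 72 h it was 1.79 for Casp1, 0.90 for Gsdmd, 0.88 for Pycard, 0.74 for Ripk1, 0.73 for Mlkl and 0.70 for Casp8. Without replicate 1 at 6 h the first step was 1.82 for Nlrp3 (adjusted p = 0.157) and 0.42 for Ripk1 (adjusted p = 0.144), neither called. Without replicate 3 at 24 h the Gsdmd step from 6 h was 0.29, and without replicate 2 at 24 h the Ninj1 step was -0.18, neither called. With scaling by library totals the Ninj1 step was -0.051. Without replicate 3 at 24 h, the step to 72 h was called for all of the 10 genes except Nlrp3, and the share of all genes called is not given here. Whether the steps of any gene differ from each other was not tested.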

How the results depend on the processing

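Of 42 calls of a gene in a contrast, 31 held under each of the 28 alternatives that gave a value and 0 changed direction. The other 11 were Casp1, Nlrp3 and Ripk1 at 6 h and Pycard at 24 h against sham, Nlrp3 and Ripk1 from 1 h to 6 h, and all 5 calls from 6 h to 24 h. The change of Nlrp3 from 24 h to 72 h, not called, turned from -0.95 to 0.0125 with limma on log2(FPKM + 0.1), ran from -1.40 to 0.54 when 1 library at a time was left out (0.54 without replicate 3 at 24 h), and was 0.54 without that library and replicate 1 at 6 h; the cause was not tested. The number of genes called from 6 h to 24 h moved from 5 to 0 when only the 6 libraries compared were fitted, and the cause was not tested. Such fits of 6 libraries gave 6, 7 and 10 calls against sham at 6, 24 and 72 h. Over all genes tested in them, 4103 of 14640, 5509 of 14902 and 11459 of 15732 were called. The fits of 6 libraries gave 6 calls from 1 h to 6 h (3247 of 14509 genes tested) and 6 from 24 h to 72 h (6648 of 15767). Leaving out 1 library at a time gave 5 to 7 calls at 6 h, 7 to 9 at 24 h and 10 at 72 h against sham, and 4 to 6, 3 to 5 and 6 to 9 for the 3 later steps between times. The 24 h to 72 h count was 6, and 9 with library totals or without replicate 3 at 24 h. At 24 h, library totals gave 10 calls. Of all 16311 genes, library totals called 8936 from 24 h to 72 h and 7363 at 24 h against sham. The shares of all genes called in the fits without 1 library are not given here. Nlrp3 gave no value with at least 10 counts required in every library, and at 6 h it was not called by limma on log2(FPKM + 1) (adjusted p = 0.0709). Over all genes, library totals gave 1914 higher and 2802 lower at 6 h against 2653 and 1986 with TMM, 5558 and 1805 at 24 h against 3860 and 3289, and 9472 and 2382 at 72 h against 5572 and 5259. Of 16 calls of list genes picked by the naming rule or singled out, 14 held under all alternatives; the exceptions were Txnip at 1 h and Vps4a at 72 h. The labels do not say whether replicate numbers pair the mice. The correlation of deviations over 45 same-numbered pairs ran from -0.26 to 0.25 (median 0.03, against -0.01 for other pairs). By it, 8 of 18 libraries were closest to their own number. These values cannot settle whether mice were paired. With the replicate number as a block, 7, 7 and 10 of the 10 genes were called at 6, 24 and 72 h. The shares of all genes called with that block are not given here. The Pycard call at 24 h was lost with it (edgeR adjusted p = 0.0503). Nlrp3 had 7 to 14 counts in sham libraries, and its fold changes carry the largest standard errors of the 10 genes.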
